A study of Mus musculus with 24 samples.

Results

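A set of 9 genes of the oocyte's mRNA storage machinery, of 55471 genes counted, was followed through fertilization in mice: the Y-box genes Ybx1, Ybx2 and Ybx3, the zygote arrest genes Zar1 and Zar1l, and Lsm14b, Ddx6, Patl2 and Eif4enif1. They were chosen by name, with earlier results of these data known, and each symbol matched 1 gene of the annotation. A fully grown oocyte is transcriptionally silent and lives on mRNAs made earlier, which it keeps untranslated in ribonucleoprotein particles until meiosis or fertilization calls for them. Y-box proteins coat such mRNAs through a cold shock domain, ZAR1 and ZAR1L bind them through zinc fingers, and the helicase DDX6 assembles with PATL2, LSM14B and 4E-T, the product of Eif4enif1, into a complex that holds capped mRNAs away from the translation machinery. The questions asked here are how much of these mRNAs the oocyte and early embryo hold, how strongly an antibody against N6-methyladenosine (m6A) pulls each of them down, and what happens to them when the nuclear m6A reader Ythdc1 is depleted.

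SLIM-seq immunoprecipitates (IP) whole m6A-bearing RNA molecules from small samples and sequences them beside an input that skips the antibody. It was run on MII oocytes taken 14 to 16 h after hCG, on late 1-cell (L1C) embryos of 27 to 29 h and on late 2-cell (L2C) embryos of 48 to 50 h, with 3 IP and 3 input libraries per stage. Oocytes came from superovulated 8-week-old wild-type B6D2F1 females (C57BL/6J x DBA/2N), were freed of cumulus cells with hyaluronidase, and embryos came from B6D2F1 matings followed by culture in KSOM medium. In the knockdown experiment B6D2F1 zygotes received Cas13d mRNA, coding for an RNA-cutting nuclease, with 3 crRNAs against Ythdc1 (KD, 3 libraries) or Cas13d mRNA alone (Ctrl, 3 libraries), and both were sequenced at L2C. The controls thus carry the nuclease and the injection but no unrelated crRNA, and the embryos are wild type in genome. The labels do not say that libraries of 1 group came from separate collections, so p-values measure the spread between these libraries, which may be technical.

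Total estimated counts ran from 11107421 to 39739950 per SLIM-seq library, and total exon counts of the 5 knockdown libraries that span the annotation from 8696476 to 14500548. Levels below are CPM, a gene's counts per 1000000 counts of the library. They are shares of a library, so a change of 1 mRNA and a change of the RNA around it cannot be told apart, nor can fewer cells and less RNA per cell. The libraries were made by a Smart-seq2-based protocol, which the study primes with oligo-dT. A change of mRNA amount and a change of its poly(A) tail therefore cannot be told apart either. The 10 oocyte markers, zona pellucida genes among them, summed to between 19315 and 20090 CPM in MII inputs, 7671 and 8261 in L1C inputs and 1188 and 1309 in L2C inputs. The 10 markers of 2-cell embryos ran the other way, from 28.6 to 34.2 CPM at MII to between 591 and 807 at L2C. Markers of cumulus and granulosa cells summed to at most 46.1 CPM in the inputs of MII, 32.6 in those of L1C and 4.89 in those of L2C. Of these 10 markers 4 reached a mean of 1 CPM in the inputs of MII, 5 in those of L1C and 2 in those of L2C, and Ptx3 was at 0 in every input, as was Foxl2 at L2C. The median of all genes tested in the inputs moved by 0.16 on the log2 scale from MII to L1C, 0.17 from L1C to L2C and 0.40 from MII to L2C. Other scalings moved that median by up to 0.13 from L1C to L2C and 0.14 from MII to L2C.

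Levels of most of the storage mRNAs changed between MII and L1C, in both directions. From MII to L1C the inputs showed a rise of 3 of the 9, where 31.9% of 19903 genes tested rose, and a fall of 5, where 24.3% fell (edgeR, BH-adjusted p under 0.05). The median change of the 9 was -0.68, which is the value of listed Eif4enif1 itself, against 0.16 over all genes. Toward L2C 2 of 8 rose and 5 fell, against 44.1% and 38.8% of all genes, and across the whole interval from MII to L2C 3 rose and 4 fell, against 47.5% and 37.1%. Eif4enif1, which is among the 5 that fell into L1C, is left out of every count at L2C in SLIM-seq for a reason given with its values.

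Ybx1 codes for the broadly expressed Y-box protein YB-1. Of its 31-base words 15.6% also occur in the pseudogene Gm11560 and 12.0% in Ybx1-ps2, so part of its reads could be counted there. Its inputs held 15.8, 22.1 and 30.2 CPM at MII, 8.82, 12.1 and 9.06 at L1C, then 41.8, 35.5 and 37.0 at L2C. Every L1C library lay below every MII library and every L2C library above both, a dip followed by a rise. The log2 change was -1.23 (SE 0.21, edgeR adjusted p 2.4e-04) into L1C and 1.84 (SE 0.21, edgeR adjusted p 1.7e-06) from there to L2C. From MII to L2C the gain of 0.60 had an edgeR adjusted p of 0.0135, and without MII input replicate 1, the lowest of its group, it was 0.38 with an edgeR adjusted p of 0.0821.

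Ybx2, the Y-box gene of germ cells (MSY2), moved the opposite way. Its 3 inputs were at 7.65, 9.61 and 10.9 CPM at MII, 14.4, 22.5 and 21.7 at L1C, then 13.5, 13.0 and 12.8 at L2C. The L1C libraries stood above those of the other stages, by a log2 difference of 1.01 (SE 0.20, edgeR adjusted p 5.9e-04) over MII, and the level then fell by 0.67 (SE 0.19, edgeR adjusted p 0.00506). The L2C inputs did not overlap those of MII, but the difference of 0.34 (SE 0.19) missed the threshold with an edgeR adjusted p of 0.118.

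Ybx3, the third Y-box gene and the one the study describes as a target of Ythdc1, gave 6.29, 8.85 and 7.81 CPM in MII inputs, 10.2, 14.1 and 11.8 in L1C inputs and 4.09, 4.56 and 4.37 in L2C inputs. The stages did not overlap. The rise into L1C was 0.60 (SE 0.19, edgeR adjusted p 0.0154), and the fall that followed was -1.56 (SE 0.19, edgeR adjusted p 3.5e-06). Without MII input replicate 1 or L1C input replicate 2 the rise was 0.47 and 0.48, with edgeR adjusted p of 0.0700 and 0.0680. At L2C the counts behind these values were 112, 91 and 167.

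Zar1, a maternal gene that embryos need to pass the 1-cell stage, fell furthest of the members. Its inputs went from 1924, 2179 and 2191 CPM at MII through 478, 808 and 645 at L1C to 14.4, 14.0 and 16.0 at L2C. The stages were far apart in every library. The log2 changes were -1.76 (SE 0.16, edgeR adjusted p 7.0e-07) and -5.53 (SE 0.19, edgeR adjusted p 6.5e-12), and -7.29 (SE 0.21, edgeR adjusted p 9.2e-13) in all, a 156-fold fall. Of the 31-base words of the spliced Zar1 sequence 38.3% also occur in the pseudogene Gm15847 on the same chromosome, which the inputs list at 20.7 to 28.9 CPM at MII and at most 0.0529 at L2C, and 29.99% occur in Gm42668, which overlaps it, so part of the Zar1 signal could have been assigned to either.

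The paralog Zar1l had another course. It stood at 24.3, 22.7 and 18.8 CPM at MII, 39.9, 55.1 and 49.1 at L1C, then 40.5, 45.0 and 35.9 at L2C. Levels at L1C and L2C overlapped, and both lay above MII. The rise after MII was 1.08 (SE 0.16, edgeR adjusted p 5.4e-05). The following difference of -0.34 (SE 0.15) had an edgeR adjusted p of 0.0524, and it passed the threshold, at -0.36 to -0.48, when MII input replicate 1 or 3, L1C input replicate 1 or L2C input replicate 2 was left out. From MII to L2C Zar1l remained higher by 0.74 (SE 0.16, edgeR adjusted p 5.1e-04).

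Among the genes of the repression complex Lsm14b and Patl2 went down in steps and Ddx6 went up late. Lsm14b, an LSM14-family RNA-binding protein of oocytes, was at 45.6, 44.9 and 39.3 CPM at MII, 13.4, 12.8 and 14.5 at L1C, then 7.52, 6.46 and 7.57 at L2C. Both steps were larger than the spread, at -1.73 (SE 0.15, edgeR adjusted p 3.4e-07) and -1.005 (SE 0.15, edgeR adjusted p 2.1e-05). Patl2, the oocyte form of the PAT1 decapping factor, was at 101, 88.7 and 88.9 CPM, then 26.5, 28.2 and 30.8, then 4.92, 5.00 and 4.65. Its changes were -1.76 (SE 0.13, edgeR adjusted p 6.6e-08) and -2.65 (SE 0.14, edgeR adjusted p 2.7e-10), a 21.2-fold fall over the whole interval. Ddx6, the helicase of this complex and of P-bodies, held 11.0, 10.6 and 9.48 CPM at MII and 12.2, 9.57 and 8.38 at L1C. Those ranges overlapped (log2 difference -0.09, SE 0.17, edgeR adjusted p 0.673). At L2C it had risen to 28.7, 24.8 and 28.4 CPM, by 1.34 over L1C (SE 0.17, edgeR adjusted p 4.3e-06).

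**Figure D1:**
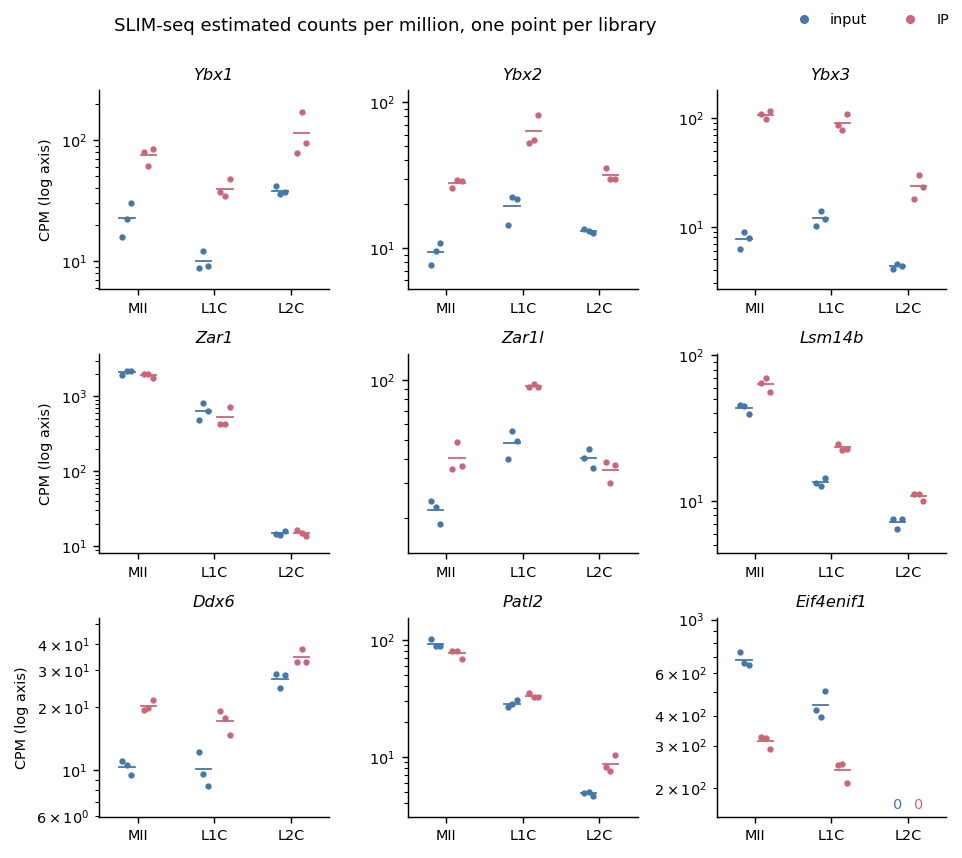
Estimated counts as CPM (log axis, each panel with its own range) of the 9 genes at MII, L1C and L2C, with 1 point per library, blue for input and red for IP, and a bar at the mean of 3 libraries. Zar1 falls from 2098 to 14.8 CPM in the inputs, the IP points of Ybx3 stand far above its inputs at every stage, and Eif4enif1 is listed at 0 in all L2C libraries.

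Eif4enif1 needs care. The quantification used 1 target per gene that runs over the whole gene with its introns, and Eif4enif1 (chromosome 11, 3202392 to 3244588, plus strand, GRCm38) lies wholly inside the span of Drg1 (3187360 to 3266415, minus strand), so 88.8% of its 31-base words are also words of Drg1. The inputs list Eif4enif1 at 733, 663 and 647 CPM at MII, 422, 396 and 504 at L1C, and 0 in all 3 libraries at L2C. Drg1, which codes for a GTP-binding protein, is listed at 61.7, 60.7 and 81.4 CPM, then 117, 97.3 and 92.4, then 495, 484 and 510.2. In the Ctrl L2C embryos of the knockdown experiment, counted on exons from aligned reads, Eif4enif1 held 144, 152 and 147 CPM and Drg1 198, 185 and 162. The 0 at L2C in SLIM-seq therefore stands against a clear exon count at the same stage. Between MII and L1C the listed Eif4enif1 fell by 0.68 (SE 0.13, edgeR adjusted p 8.7e-04), and the sum of both genes, an alternative added after seeing the data, fell by 0.51 (SE 0.11, edgeR adjusted p 0.00165). From L1C to L2C the sum gave -0.22 (SE 0.11, edgeR adjusted p 0.0825), and no fold is given for Eif4enif1 alone.

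**Figure D2:**
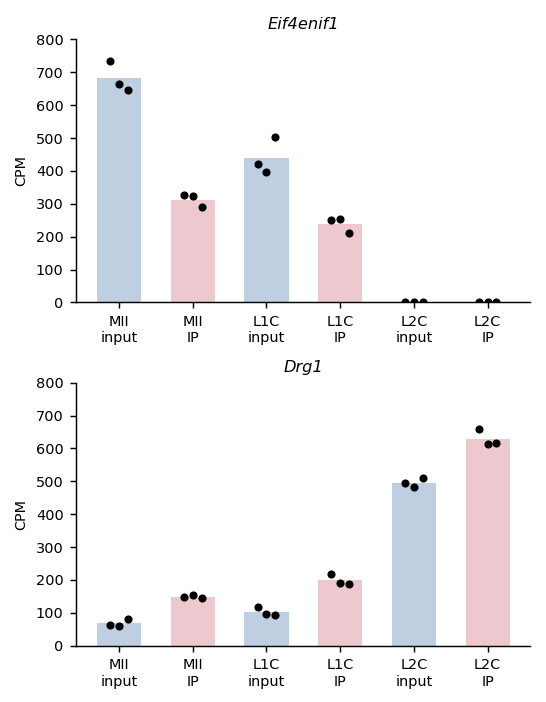
Estimated counts as CPM (linear axis from 0) of Eif4enif1 and of Drg1, whose span encloses it, in the 6 groups of SLIM-seq libraries. Bars are means of 3 libraries, blue for input and red for IP, and points are libraries: Eif4enif1 drops to 0 at L2C where Drg1 reaches 484 to 659 CPM.

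Gene spans of different length and intron content do not allow the members' levels to be ranked in SLIM-seq, so the order was taken from exon counts per kilobase of exon in the 3 Ctrl libraries at L2C. Ybx1 led with 235 ± 8.22 CPM per kb (mean ± SD, n = 3). Lsm14b followed with 30.96 ± 2.29, then Eif4enif1 with 23.2 ± 0.58, Ybx3 with 22.8 ± 2.03 and Zar1l with 22.7 ± 0.43, and these last 3 overlapped between libraries. Ybx2 stood at 15.9 ± 1.55, Ddx6 at 7.74 ± 0.31, Zar1 at 2.97 ± 0.24 and Patl2 at 2.60 ± 0.20, of which Zar1 and Patl2 overlapped. All other neighbours in this order were separated in all 3 libraries. The 2 ways of counting gave different levels at L2C for the same gene: Ybx1 had 38.1 ± 3.30 CPM in SLIM-seq inputs against 595 ± 20.8 in Ctrl exon counts, Ybx3 4.34 ± 0.24 against 70.1 ± 6.25 and Lsm14b 7.18 ± 0.62 against 89.5 ± 6.61, while Zar1l had 40.5 ± 4.54 against 20.3 ± 0.39. Embryos, libraries and quantification all differ between those values, and which of them sets the gap was not tested. SLIM-seq levels are not used below to rank genes by amount.

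**Figure D3:**
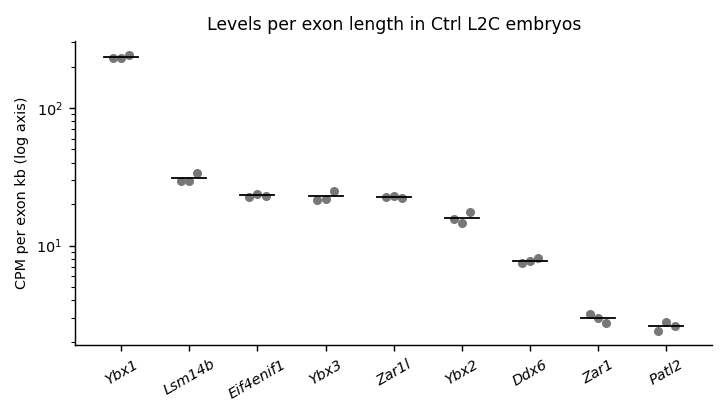
CPM on exons per kilobase of exon (log axis) of the 9 genes in the 3 Ctrl L2C libraries, 1 grey point per library and a black bar at the mean, in descending order. Ybx1 at 235 stands above the rest, and Zar1 and Patl2 at 2.97 and 2.60 are lowest.

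The m6A antibody enriched the Y-box mRNAs at all 3 stages, Ybx3 most. The study picked Ybx3 among genes it called m6A-tagged from these same libraries, so its enrichment here is no independent evidence. At MII 6 of the 9 mRNAs were higher in IP than in input and 2 lower, where 17.7% and 21.0% of 21950 genes tested were (edgeR, BH-adjusted p under 0.05), and the median log2 IP/input was 0.64 against 0.00 over all genes. At L1C it was again 6 higher and 2 lower, against 15.8% and 18.2%, with a median of 0.49 against 0.07. Listed Eif4enif1 was among the lower at MII and at L1C. At L2C 4 of 8 were higher and 1 lower, against 22.0% in either direction, with a median of 0.46 against 0.09. TMM scaling sets the zero of these ratios. With scaling to library size alone the median of all genes lay higher by 0.20 at MII, by 0.30 at L1C and by 0.25 at L2C. The share of called genes that were higher then went from 45.7% to 61.7%, from 46.5% to 70.9% and from 50.0% to 67.6%.

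Ybx3 gave 109.7, 97.6 and 118 CPM in MII IPs against the 6.29 to 8.85 of its inputs, a 12.0-fold enrichment after scaling (log2 3.59, SE 0.19, edgeR adjusted p 4.6e-11). The L1C IPs held 86.7, 77.7 and 109 CPM and the L2C IPs 18.2, 29.7 and 23.4. Every IP library lay above every input of its stage. The log2 IP/input came to 2.63 (SE 0.18, edgeR adjusted p 3.1e-09) at L1C and 2.18 (SE 0.18, edgeR adjusted p 3.3e-08) at L2C. Enrichment of Ybx3 was thus lower after fertilization, by -0.96 from MII to L1C (SE 0.24, edgeR adjusted p 0.0182) and by -1.41 from MII to L2C (SE 0.25, edgeR adjusted p 5.1e-04). The first of these differences was -0.85 to -0.87, with edgeR adjusted p between 0.0555 and 0.0589, without MII input replicate 1, L1C input replicate 2 or L1C IP replicate 2.

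Ybx1 was recovered in the IPs at 79.1, 61.2 and 83.9 CPM at MII, 36.9, 34.2 and 47.3 at L1C, then 77.4, 170.4 and 94.0 at L2C. All 9 IP libraries lay above the inputs of their stage, and L2C IP replicate 2 was far above the other two. The log2 IP/input was 1.49 (SE 0.25, edgeR adjusted p 7.7e-05), 1.68 (SE 0.25, edgeR adjusted p 3.8e-05) and 1.31 (SE 0.24, edgeR adjusted p 2.5e-04) in that order. For Ybx2 the IPs held 25.9, 29.4 and 28.6 CPM at MII, 52.8, 55.0 and 82.4 at L1C, then 35.4, 29.7 and 29.9 at L2C. These too were above every input, and the log2 ratios were 1.35 (SE 0.19, edgeR adjusted p 1.5e-05), 1.41 (SE 0.19, edgeR adjusted p 9.6e-06) and 1.02 (SE 0.19, edgeR adjusted p 2.4e-04). No difference of enrichment between stages passed the threshold for Ybx1 or Ybx2, with changes between -0.38 and 0.20 and standard errors of 0.26 to 0.35.

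The zygote arrest genes differed from the Y-box genes and from each other. Zar1 gave 1981, 2026 and 1745 CPM in MII IPs, 432, 429 and 717 in L1C IPs and 16.4, 15.0 and 13.6 in L2C IPs, overlapping its inputs at each stage. Its log2 IP/input was -0.36 (SE 0.19, edgeR adjusted p 0.138) at MII and -0.23 (SE 0.20, edgeR adjusted p 0.364) at L2C, the latter turning to 0.02 without TMM. At L1C it was lower in IP by -0.59 (SE 0.19, edgeR adjusted p 0.0207), a call lost without L1C input replicate 2, L1C IP replicate 1 or L1C IP replicate 2 (-0.41 to -0.49, edgeR adjusted p 0.0908 to 0.133) and without TMM (-0.29). Zar1l was enriched early and not late. Its IPs held 35.5, 48.6 and 36.9 CPM at MII, then 92.8, 96.1 and 92.4 at L1C, above all inputs. L2C gave 38.4, 30.1 and 37.2, within the range of or below the inputs. The log2 IP/input was 0.64 (SE 0.16, edgeR adjusted p 0.00309), 0.67 (SE 0.16, edgeR adjusted p 0.00244) and -0.44 (SE 0.16, edgeR adjusted p 0.0286). The drop of enrichment from L1C to L2C was -1.11 (SE 0.22, edgeR adjusted p 0.00417) and from MII to L2C -1.09 (SE 0.22, edgeR adjusted p 0.00173). The call at L2C itself was lost without L2C input replicate 1, L2C input replicate 2 or L2C IP replicate 2 (-0.34 to -0.46, edgeR adjusted p 0.0509 to 0.118) and without TMM (-0.19, edgeR adjusted p 0.304).

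In the repression complex Ddx6 and Patl2 crossed over. Ddx6 IPs held 19.4, 19.8 and 21.6 CPM at MII, 19.1, 17.8 and 14.7 at L1C, then 33.0, 38.0 and 32.9 at L2C, above all inputs of the stage in each case. The log2 IP/input was 0.73 (SE 0.15, edgeR adjusted p 7.2e-04) at MII, 0.46 (SE 0.15, edgeR adjusted p 0.0221) at L1C and 0.09 (SE 0.15, edgeR adjusted p 0.663) at L2C. The call at L1C was lost without L1C input replicate 2 or 3 or L1C IP replicate 1 or 2 (0.35 to 0.42, edgeR adjusted p 0.0778 to 0.121). Between MII and L2C the enrichment of Ddx6 dropped by 0.64 (SE 0.21, edgeR adjusted p 0.0364), and leaving out any 1 of 9 of the 18 libraries ended this call at -0.58 to -0.68 (edgeR adjusted p 0.0502 to 0.0876), namely MII input replicate 2 or 3, any MII IP, or replicate 1 or 3 of the L2C inputs or IPs.

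Patl2 gave 79.6, 80.8 and 69.2 CPM in MII IPs, below its inputs, 35.4, 32.4 and 32.1 in L1C IPs and 8.13, 7.52 and 10.4 in L2C IPs, both above the inputs. The log2 IP/input went from -0.52 (SE 0.12, edgeR adjusted p 0.00212) through -0.08 (SE 0.12, edgeR adjusted p 0.682) to 0.60 (SE 0.14, edgeR adjusted p 0.00165), and without TMM the first value was -0.28 (edgeR adjusted p 0.0656) and the middle one 0.23. Enrichment rose by 1.11 from MII to L2C (SE 0.18, edgeR adjusted p 2.4e-04) and by 0.67 from L1C to L2C (SE 0.18, edgeR adjusted p 0.0273). The latter call was lost, at 0.53 to 0.67 with edgeR adjusted p of 0.0534 to 0.0996, without L1C input replicate 3, L1C IP replicate 2 or 3, L2C input replicate 1 or 3, or L2C IP replicate 3. Only 3.68% of the 66082 bases of the Patl2 span are exons, and B2m and Trim69 lie inside it. B2m, a subunit of MHC class I, was listed at 0 in MII inputs, at 17.4 to 24.4 CPM in L2C inputs and at 60.9 to 68.6 CPM in L2C IPs, rising with stage as the IP/input of Patl2 did, and its part in the Patl2 values was not tested.

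Lsm14b lay slightly above its inputs at each stage. Its IPs held 64.8, 69.6 and 55.9 CPM at MII, 24.8, 22.5 and 22.8 at L1C, then 11.2, 11.3 and 9.98 at L2C. The log2 IP/input was 0.32 (SE 0.12, edgeR adjusted p 0.04997), 0.49 (SE 0.13, edgeR adjusted p 0.00601) and 0.33 (SE 0.13, edgeR adjusted p 0.0506), so the values at MII and L2C sit on either side of the threshold with the same size. The MII call was lost in 15 of the 18 fits that leave out a library, all but those without L2C input replicate 2, MII IP replicate 3 or L2C IP replicate 2, at 0.23 to 0.37 (edgeR adjusted p 0.0519 to 0.223). Listed Eif4enif1 was depleted in IPs, at 326, 323 and 289 CPM at MII and 251, 253 and 211 at L1C, a log2 difference of -1.36 (SE 0.13, edgeR adjusted p 5.6e-07) and then -1.19 (SE 0.13, edgeR adjusted p 3.7e-06). Drg1 went the other way at both stages, at 0.90 (SE 0.12, edgeR adjusted p 6.1e-06) and 0.65 (SE 0.12, edgeR adjusted p 2.8e-04), and the sum of the pair gave -0.93 (SE 0.11, edgeR adjusted p 8.1e-07) and -0.62 (SE 0.10, edgeR adjusted p 1.3e-04). At L2C the sum stood at 0.09 (SE 0.10, edgeR adjusted p 0.509).

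**Figure D4:**
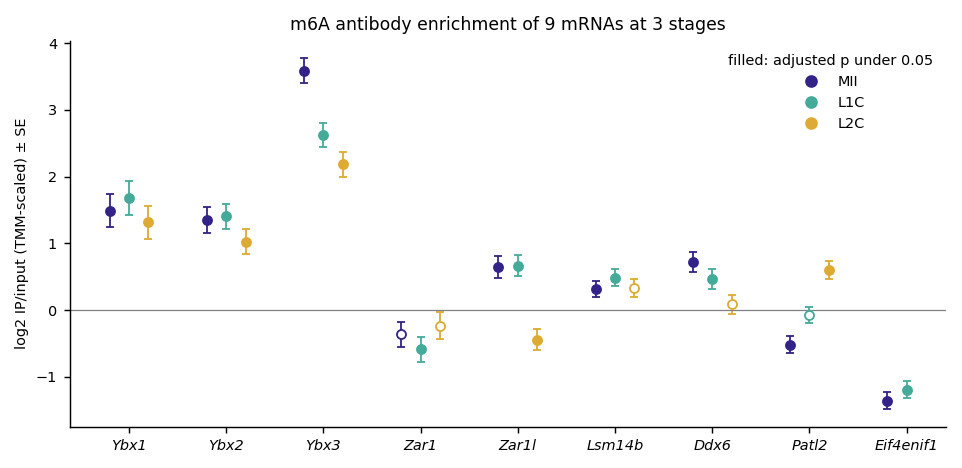
Log2 IP/input from the edgeR fit (TMM scaling, error bars ± SE, 3 IP and 3 input libraries per stage) of the 9 mRNAs at MII (dark blue), L1C (green) and L2C (yellow), filled where the adjusted p is under 0.05. Ybx3 descends from 3.59 to 2.18, Patl2 climbs from -0.52 to 0.60, and Zar1l is above 0 at MII and L1C and below it at L2C, where Eif4enif1 has no value.

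Counted over the list, enrichment changed from MII to L1C for 1 of 9 members, Ybx3, which was lower (3.13% of all genes were higher and 4.21% lower, and the higher share of these calls went from 42.6% to 53.3% with scaling to library size alone). From L1C to L2C 1 of 8 was higher and 1 lower, against 5.00% and 4.47%, and from MII to L2C 1 was higher and 3 lower, against 11.1% and 9.21%. With DESeq2 size factors the higher share of all calls went from 52.8% to 43.7% from L1C to L2C and from 54.6% to 47.3% from MII to L2C, so the balance of the background turned.

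m6A is deposited mostly within a consensus whose commonest form, in DNA letters, is GGACT. The longest annotated mRNA of each gene (GENCODE M21, GRCm38) was searched for GGACT and for its first 4 letters, GGAC, on the mRNA strand only, so that every GGACT is also counted as a GGAC. Of 21901 protein-coding genes 87.6% hold GGACT, with a median of 1.01 per kb, and 98.4% hold GGAC, with a median of 3.93 per kb. Ybx3, the mRNA with the largest IP enrichment of the list, holds no GGACT in its 1853 bases, and neither do Ybx1 and Zar1l. Ybx2 holds 2, Zar1 1, Patl2 3, Lsm14b 4, Eif4enif1 4 and Ddx6 7, 4 of the latter in its 3' UTR of 4250 bases. A match is a description of the letters, not a mapped m6A site, and IP of unfragmented RNA gives no position. SLIM-seq counts cover whole gene spans, for Ybx3 23622 bases of which 3075 are exon, and bases outside the longest mRNA were not searched. The 7 GGAC words of Ybx3, capitalised with 8 bases on either side, are shown because this mRNA carries the strongest enrichment:
Ybx3, 5' UTR, exon 1, chr6:131388325-131388328, minus strand: agcgagccGGACgccgcgac
Ybx3, coding, exon 1, chr6:131388172-131388175: gcgcccccGGACcccgcgcc
Ybx3, coding, exon 1, chr6:131388037-131388040: ggcggcgaGGACgcggagaa
Ybx3, coding, exon 5, chr6:131379369-131379372: ggcgccgtGGACctccccgt
Ybx3, coding, exon 6, chr6:131376024-131376027: accacgtgGGACagaccttt
Ybx3, coding, exon 8, chr6:131368556-131368559: tccgcaggGGACctgctcgc
Ybx3, 3' UTR, exon 10, chr6:131365291-131365294: caagaattGGACattagaat

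For comparison, the full GGACT words of the Y-box paralog and of Zar1, which was not called higher in IP at any stage, are capitalised here in the same way:
Ybx2, coding, exon 1, chr11:69936201-69936205, plus strand: ggcctcggGGACTcccgcgcc
Ybx2, coding, exon 5, chr11:69940056-69940060, plus strand: cgggcagaGGACTcggggcag
Zar1, coding, exon 2, chr5:72578479-72578483, minus strand: cactgcaaGGACTgcaaaatc

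Ybx3 has 3.78 GGAC per kb, more than 46.8% of mRNAs, and Zar1 has 7.00 per kb, more than 91.6% of them.

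The knockdown asks which of these mRNAs depend on YTHDC1, a nuclear reader of m6A with roles in splicing and export. Its 3 crRNAs are complementary to the coding sequence of Ythdc1 (chromosome 5, plus strand, GRCm38) and are given because they define the treatment:
crRNA 1, exon 4, chr5:86817026-86817048: cctcattctcagtgttgttgccc
crRNA 2, exon 2, chr5:86815667-86815689: aattcatcatcctgttctggtac
crRNA 3, across the junction of exons 3 and 4, chr5:86816772-86816908: ctctcagaaccatctggtgtagg

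Ythdc1 itself was at 1114, 1138 and 1048 CPM in Ctrl and 498, 521 and 493 CPM in KD, lower by -1.004 on the log2 scale (SE 0.06, edgeR adjusted p 1.3e-10). Of the 9 members 2 were higher and 3 lower in KD. In the merged count table, which holds 6 of them, 33.5% of 7433 genes tested were higher and 37.4% lower, and in the per-library counts used for Ybx2, Ddx6 and Eif4enif1, 30.5% and 36.4% of 17074. The median of the 9 was -0.12 beside -0.06 for all genes of the table, which scaling to library size alone moved to -0.19. The counts of KD replicate 3 used here stop in the middle of a row on chromosome 7, and the merged table ends at the last full gene before it, so the other 3 genes rest on 2 KD and 3 Ctrl libraries, and their CPM are shares of whole libraries where those of the table are shares of the 37.5% to 39.03% of counts it holds.

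Ybx3 fell furthest. Ctrl libraries held 175, 178 and 205 CPM and KD libraries 61.7, 60.9 and 61.6 CPM, with no overlap and hardly any spread in KD. The log2 change was -1.47 (SE 0.09, edgeR adjusted p 1.5e-10), a 2.78-fold fall. The study picked Ybx3 from these same libraries, so the value is no independent evidence of its direction. Lsm14b, which the IP enriched only weakly, fell nearly as far, from 227, 229 and 258 CPM to 75.6, 85.9 and 87.9 CPM (log2 -1.39, SE 0.09, edgeR adjusted p 2.0e-10). Ybx2 went from 29.7, 27.3 and 33.1 CPM of the whole library to 14.7 and 17.6, again without overlap (log2 -0.82, SE 0.13, edgeR adjusted p 6.3e-05).

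Ybx1 and Zar1l were higher in KD. Ybx1 rose from 1542, 1562 and 1643 CPM to 1826, 2021 and 1901 (log2 0.40, SE 0.06, edgeR adjusted p 5.0e-06). The 3 Y-box genes thus moved apart, with Ybx1 up and Ybx2 and Ybx3 down. Zar1l was at 53.8, 55.1 and 52.8 CPM in Ctrl and 65.1, 61.2 and 62.9 in KD, not overlapping (log2 0.35, SE 0.11, edgeR adjusted p 0.00664), and at 0.22 with an edgeR adjusted p of 0.0624 when scaled to library size alone.

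No change was called for the other four. Zar1, by then a rare mRNA, was at 29.5, 27.5 and 25.03 CPM in Ctrl and 23.0, 14.8 and 25.6 in KD (log2 -0.24, SE 0.18, edgeR adjusted p 0.258). Patl2 was at 15.6, 18.2 and 16.8 against 15.3, 15.0 and 16.7 CPM (log2 0.03, SE 0.19, edgeR adjusted p 0.908). Ddx6 gave 59.9, 61.9 and 64.9 CPM in Ctrl and 61.6 and 48.5 in KD (log2 -0.10, SE 0.11, edgeR adjusted p 0.459), the KD libraries lying on both sides of the lowest Ctrl. Eif4enif1 gave 144, 152 and 147 against 131 and 127 CPM, a small gap without overlap that did not pass (log2 -0.12, SE 0.08, edgeR adjusted p 0.219). Eif4enif1 and Patl2 share their spans with other genes, and the exon counting took no account of strand.

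Markers of stage moved with the treatment. The 2-cell markers, 9 of 10 with a mean of at least 1 CPM in each group, summed to between 1696 and 1826 CPM of the whole library in Ctrl and between 409.9 and 475 in KD. The oocyte markers, all 10 of them above 1 CPM, summed to between 1813 and 1932 CPM in Ctrl and between 871 and 941 in KD. Cumulus and granulosa markers stood at 8.55 to 11.7 and 7.71 to 9.60 CPM, with 6 and 5 of 10 at 0 in every library. The part of these shifts in the changes of Ybx2, Ybx3, Lsm14b, Ybx1 and Zar1l was not tested.

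**Figure D5:**
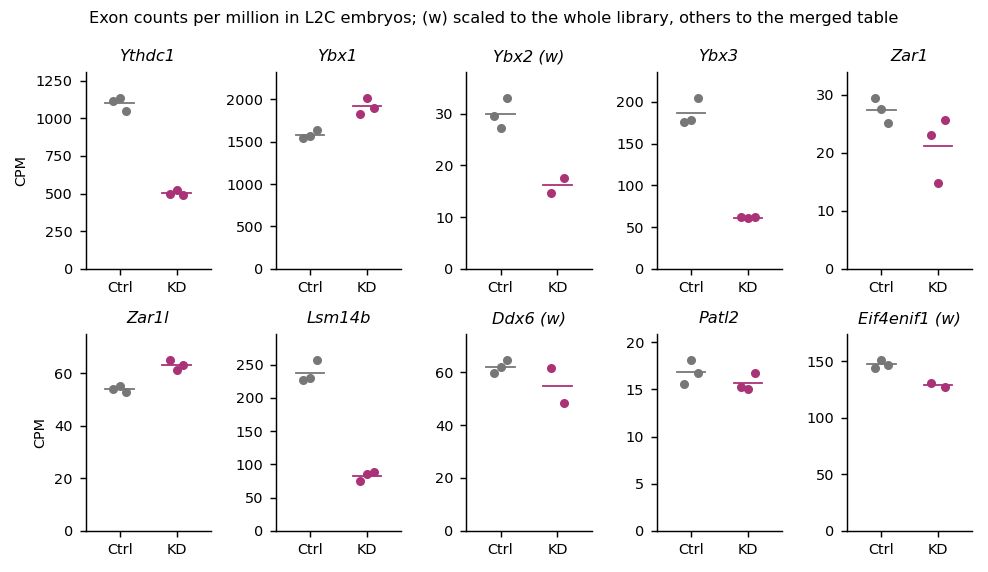
Exon counts as CPM (linear axes from 0, a scale per panel) of Ythdc1 and the 9 genes in Ctrl (grey) and KD (purple) L2C embryos, 1 point per library and a bar at the mean. Genes marked (w) are scaled to the whole library with 2 KD libraries, the others to the merged table with 3: Ybx3, Lsm14b and Ybx2 are lower in KD without overlap, Ybx1 and Zar1l higher.

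Lists of related genes place the members. In KD their genes were fitted in the merged table where it holds them and on the whole annotation otherwise. Of 15 partners of DDX6 and 4E-T, 5 rose and 8 fell from L1C to L2C, against 44.1% and 38.8% of all genes, with a median of -0.99 against 0.17. The risers were led by the cap-binding homolog Eif4e2 at 3.04 (SE 0.21, edgeR adjusted p 4.3e-09) and the decapping enhancer Edc3 at 2.72 (SE 0.27, edgeR adjusted p 2.9e-07). The fallers were led by Eif4e1b, the cap-binding protein of oocytes, at -3.48 (SE 0.19, edgeR adjusted p 4.0e-10) and Cpeb1, which controls cytoplasmic polyadenylation, at -2.56 (SE 0.13, edgeR adjusted p 3.0e-10). At MII 0 of the 15 were higher in IP and 6 lower, where 17.7% and 21.0% of all genes were, and the largest change was that of Edc4, a decapping scaffold, at -3.02 (SE 0.15, edgeR adjusted p 3.6e-11). L1C gave the same counts, against 15.8% and 18.2%. At L2C, where 22.0% of all genes were called in either direction, 3 were higher, with Atxn2 at 0.70 (SE 0.15, edgeR adjusted p 8.2e-04), and 6 lower. In KD 6 were higher and 1 lower, against 33.5% and 37.4% in the merged table and 30.5% and 36.4% over the whole annotation. The higher were led by Mov10 at 1.97 (SE 0.48, edgeR adjusted p 0.00112) and Tnrc6a at 1.90 (SE 0.25, edgeR adjusted p 6.5e-06). The lower one was Eif4e1b again, at -2.31 (SE 0.12, edgeR adjusted p 9.1e-10).

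Of the 5 other genes with a cold shock domain 0 were called higher in IP at MII and 3 lower, against 17.7% and 21.0% of all genes. Carhsp1 stood at -2.27 on the log2 scale (SE 0.14, edgeR adjusted p 4.9e-10), and Lin28a, whose protein blocks let-7 processing, -1.84 (SE 0.10, edgeR adjusted p 1.3e-10). At L1C and at L2C 1 was higher, Lin28b at 0.47 (SE 0.15, edgeR adjusted p 0.0182) and 0.51 (SE 0.15, edgeR adjusted p 0.00986), and 3 lower, against 15.8% and 18.2% at the first stage and 22.0% in either direction at the second. The L1C call of Lin28b was lost without L1C input replicate 3 (0.37, edgeR adjusted p 0.101) or L1C IP replicate 3 (0.35, edgeR adjusted p 0.108), and with a replicate block. In the inputs 3 rose and 2 fell from L1C to L2C, against 44.1% and 38.8%. In KD 4 could be tested, of which 2 were higher and 1 lower, against 33.5% and 37.4% in the merged table and 30.5% and 36.4% over the whole annotation. The lower one was Lin28a at -1.24 (SE 0.11, edgeR adjusted p 9.6e-09). Carhsp1, higher by 0.22 (SE 0.09, edgeR adjusted p 0.0380), lost its call without KD replicate 2, Ctrl replicate 1 or Ctrl replicate 2 (0.16 to 0.20, edgeR adjusted p 0.119 to 0.260), with library size alone and with no filter, which leaves 1 higher.

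Of the 17 other repressors and mRNP proteins 6 were higher in IP and 8 lower at MII, against 17.7% and 21.0% of all genes. At L1C these were 6 and 7, against 15.8% and 18.2%, and at L2C 2 and 6, against 22.0% in either direction. Fxr2, a paralog of the fragile X protein, was at 2.06 (SE 0.19, edgeR adjusted p 4.1e-08) at MII and -1.001 (SE 0.14, edgeR adjusted p 1.4e-05) at L2C, a change of enrichment of -3.07 (SE 0.23, edgeR adjusted p 7.5e-08), while its input level rose by 6.71 (SE 0.22, edgeR adjusted p 2.8e-12). Its inputs held only 1.14 to 1.56 CPM at MII, against 149 to 192 at L2C, so the MII values rest on few counts. Dazl, a germ-cell translation factor, fell by 4.36 from MII to L2C in the inputs (SE 0.21, edgeR adjusted p 7.2e-11). Over that interval 8 of the 17 rose and 7 fell, against 47.5% and 37.1% of all genes. In KD 9 of the 17 were higher and 2 lower, against 33.5% and 37.4% in the merged table and 30.5% and 36.4% over the whole annotation. Stau2, a double-stranded RNA binding protein, was among the lower at -0.41 (SE 0.13, edgeR adjusted p 0.00952), a call lost without Ctrl replicate 1 (-0.31, edgeR adjusted p 0.0730). The other was its paralog Stau1 at -0.21 (SE 0.08, edgeR adjusted p 0.0206), lost without KD replicate 1, KD replicate 3 or Ctrl replicate 3 (-0.17 to -0.20, edgeR adjusted p 0.0535 to 0.111) and in the whole-annotation counts.

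Across the 18 SLIM-seq libraries some mRNAs followed the members closely, measured as the root mean square difference of centred log2(CPM + 1) among 8263 protein-coding genes with at least 10 CPM in the inputs. Patl2 was matched best, by Spire1 at 0.13 and Laptm4b at 0.18. Ddx6 was nearest to Arl14ep at 0.18 and Lepr at 0.20, Lsm14b to Gm12166 at 0.18 and Tmem35b at 0.19, and Zar1l to Irf1 at 0.23 and Mrpl58 at 0.28. For Ybx2 the nearest were Eif1ax at 0.28 and Timm9 at 0.30, and for Ybx1 Hnrnpa2b1 at 0.29 and Ubl5 at 0.31. Zar1 lay nearest to H1foo, the oocyte linker histone, at 0.54 and to Pabpn1l at 0.62. Ybx3 had no close neighbour by this measure, with Cnot6l and Slc9b1 both at 0.63. The values of Eif4enif1 at 0 leave no meaningful distance for it.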

How the data were processed

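SLIM-seq libraries of MII oocytes, L1C and L2C embryos and RNA-seq libraries of Ythdc1 KD and Ctrl L2C embryos were analysed, 24 in all, grouped by their labels. For SLIM-seq the authors ran kallisto, whose version is not given in the sources used here, and deposited estimated counts per gene, not scaled, with whole gene spans of GRCm38 as targets. They also deposited TPM values from the same runs, which were not used for tests. For the knockdown the authors trimmed with Trimmomatic, aligned with HISAT2 and deposited raw counts on exons from featureCounts v2.0.1, without a strand option. The merged table holds 25739 of 55471 genes.

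Estimated counts were rounded to whole numbers. Counts were tested with the quasi-likelihood test of edgeR 4.0.16 in R 4.3.3, with TMM scaling, the edgeR filter on low counts and Benjamini-Hochberg (BH) adjustment over all genes tested: all 18 SLIM-seq libraries in 1 fit, the 9 inputs in another, and the knockdown on its own. Genes beyond the merged table were fitted on the 5 libraries that span the annotation. Called means a BH-adjusted p under 0.05. Both edgeR and DESeq2 were tried on simulated counts with known changes. Replicates differed by more than counting noise in every group, with a chi-square per degree of freedom of at least 2.67. Depth per library was 11107421 to 39739950 estimated counts. Tables were made with Python 3.11.15, numpy 2.4.6 and pandas 2.3.3. Gene models are GENCODE M21.

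The named genes are the 9 members, Ythdc1, at most the 2 largest called changes per direction, list and comparison, and the 2 nearest mRNAs per member. Members and lists were chosen with earlier results of these data known. Alternatives were DESeq2 1.42.0, scaling to library size, DESeq2 size factors, no filter, fits of single stages, a replicate block, other call rules and each library left out in turn. The merged table holds no columns of samples outside the series.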

Additional observations from a re-analysis of the deposited data

Results flagged for a closer look

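IP enrichment differed between stages in 7 cases by the interaction test of edgeR, which compares the log2 IP/input of 2 stages directly. Ybx3 was lower at L1C than at MII by -0.96, a call lost without any 1 of 3 libraries, and at L2C than at MII by -1.41. Zar1l was lower at L2C by -1.11 against L1C and by -1.09 against MII. Ddx6 was lower at L2C than at MII by -0.64, a call lost in 9 of 18 fits that leave out a library, with no filter on low counts and with the replicate block. Among the 8 members with a usable value at L2C, Patl2 was the only one with a called rise, of 0.67 from L1C to L2C, a call lost in several settings, and 1.11 from MII to L2C. Eif4enif1 could not be tested there, and its sum with Drg1, added after seeing the data, rose by 0.71 from L1C to L2C (SE 0.15, edgeR adjusted p 0.00567) and by 1.02 from MII to L2C (SE 0.15, edgeR adjusted p 7.0e-05). For Ybx3 and Zar1l the values of all 3 stages come from libraries in which the IP and input ranges did not overlap, apart from Zar1l at L2C. Groups of 3 libraries are too small for a test of outlying samples.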

How the results depend on the processing

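Of 1755 values for the members and Ythdc1 under the alternatives, 1646 kept direction and call, 60 lost the call, 14 gained it and 35 changed sign, all of the latter without a call. For the other named genes 1705 of 1790 were kept, 85 lost the call and 0 changed sign. The cause of these changes was not tested.

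The number of members called moved by over 1.5 times in some settings. With a log2 change over 1 required, 4 members instead of 7 were called between MII and L2C inputs. Between IP and input, only Ybx1, Ybx2, Ybx3 and listed Eif4enif1 had a log2 change over 1 in size at MII and L1C. At L2C only the Y-box genes did. Of the changes of enrichment from L1C to L2C only that of Zar1l was over 1 in size, and that of Ybx3 from MII to L1C, at -0.96, was not. A call by unadjusted p gave 2 instead of 1 for the change of enrichment from MII to L1C. From L1C to L2C that change was called for 1 instead of 2 with no filter on low counts, with the replicate block, and with only the libraries of L1C and L2C. In KD an unadjusted p with a log2 change over 1 gave 2 instead of 5, Ybx3 and Lsm14b. With each library left out in turn the called members numbered 7 to 8, 6 to 8 and 4 to 6 for IP/input at MII, L1C and L2C, 7 to 8, 7 to 8 and 6 to 7 for the inputs from MII to L1C, L1C to L2C and MII to L2C, 0 to 1, 1 to 2 and 3 to 4 for the changes of enrichment in the same order, and 5 in KD in every case. Leaving out KD replicate 1 or 2 leaves 1 KD library for Ybx2, Ddx6 and Eif4enif1, assumed to vary like the Ctrl libraries.

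Signs turned as follows. With library size alone Patl2 at L1C had a log2 IP/input of 0.23, Zar1 at L2C 0.0205, and Patl2 in KD -0.10, the last also -0.0270 in the whole-annotation counts and -0.0293 to 0.0962 with a library left out. Ddx6 spanned -0.26 to 0.00547 from MII to L1C and -0.29 to 0.0844 in KD with a library left out. For the change of enrichment from MII to L1C, Zar1l gave -0.0012 with DESeq2, -0.0014 with DESeq2 size factors, -0.0639 with MII and L1C libraries only and -0.0910 to 0.20 with a library left out, Ybx2 -0.0293 and -0.19 to 0.18 in the last 2 settings, and Ybx1 -0.0523 to 0.39 in the last. From MII to L2C, Lsm14b gave -0.0672 with DESeq2, -0.0583 with DESeq2 size factors, -0.0323 with no filter, -0.16 with MII and L2C libraries only and -0.0929 to 0.0965 with a library left out, Zar1 -0.0426 with those stages only, and Ybx1 -0.56 to 0.0297 with a library left out.

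Other calls depended on the fit. Fitted on its own stage, Zar1 passed at MII (-0.32, edgeR adjusted p 0.0167) and missed at L1C (-0.59, edgeR adjusted p 0.0833), as did Ddx6 at L1C (0.46, edgeR adjusted p 0.0749). Without the filter Lsm14b at MII (edgeR adjusted p 0.220) and Ddx6 at L1C (edgeR adjusted p 0.0820) were lost, and so were the changes of enrichment of Ddx6 from MII to L2C (-0.69, edgeR adjusted p 0.0825) and of Patl2 from L1C to L2C (0.63, edgeR adjusted p 0.107). The latter was also lost with only the libraries of those stages (0.48, edgeR adjusted p 0.1395). Lsm14b at L2C passed with library size alone (0.58), with DESeq2 (0.32) and with DESeq2 size factors (0.33), Ybx2 from MII to L2C with library size alone (0.49) and with DESeq2 (0.42), and Eif4enif1 in KD with library size alone (-0.20, edgeR adjusted p 0.0428). Between L1C and L2C, Zar1l passed on those libraries alone (-0.43, edgeR adjusted p 0.0267).

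The study says that input RNA came from the batches used for IP, but the labels do not say that equal replicate numbers mark a shared batch. Deviations of equally numbered libraries correlated at -0.30 to 0.19 between IP and input, with 2 of 9 pairs over 0.1, at -0.14 to 0.31 between input stages, with 3 of 9, and at -0.04 to 0.05 between KD and Ctrl, with 0 of 3. A library correlated best with its own number in 1, 4 and 1 of these pairs. With the number as a replicate block Lsm14b at MII (0.31, edgeR adjusted p 0.0834), the change of Patl2 from L1C to L2C (0.66, edgeR adjusted p 0.0750) and that of Ddx6 from MII to L2C (-0.64, edgeR adjusted p 0.0630) were not called, Zar1l from L1C to L2C was (-0.34, edgeR adjusted p 0.0483), and no other call on a member changed. Of the other genes named in the text, the block ended the call of Lin28b at L1C (0.47, edgeR adjusted p 0.0574).

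Depth limits values that rest on few counts, such as the 91 to 167 counts of Ybx3 in L2C inputs and the 55 to 91 of Patl2 in the knockdown libraries. Estimated counts over whole gene spans mix reads of introns and enclosed genes, and 3 libraries per group set the precision of every value.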
